A study of Mus musculus with 4 samples.

Results

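The genes described here encode axonemal proteins of motile cilia that lie outside the dynein arms: radial spokes, the central pair apparatus, the nexin-dynein regulatory complex, the rulers and tethers that place these structures, and proteins inside the doublet microtubules. They were taken by symbol from a list of 37 names, and all 37 were found among the 21931 genes of the deposited table. Expression was measured by RNA sequencing of lung from C57BL6 mice at 2 months of age, which received no further treatment. The series asks which genes differ after knockout of Dnah9, which encodes an outer arm dynein motor. The groups were wild type (1 library), Dnah9 knockout (2 libraries, called knockout 1 and knockout 2) and a genotype labelled Hez (1 library), a term the labels do not spell out. The sources used here do not give how the knockout was made or whether the 2 knockout libraries came from separate animals. The p-values of tests on these groups take their error from the spread of the knockout pair and from all genes together. The lone wild-type and Hez libraries add no spread of their own, and the spread that was measured may be technical.

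A motile cilium is built around an axoneme, a ring of doublet microtubules that surrounds a central pair of single microtubules. Dynein arms on the doublets slide them past each other. Radial spokes reach from the doublets to the central pair and carry its signals to the dyneins, and the nexin-dynein regulatory complex links neighbouring doublets and turns sliding into bending. In the lung these genes are known from the multiciliated cells of the airway epithelium, a small part of the tissue. Loss of several of them causes primary ciliary dyskinesia, a disease of impaired mucus clearance.

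Dnah9 itself stood at 56.6 CPM (reads per 1e6 reads, after TMM scaling of the libraries) in wild type, 25.4 in Hez, 14.8 in knockout 1 and 15.98 in knockout 2. The knockout libraries were the lowest and Hez lay between them and wild type. The sources used here do not give which exons were removed, so reads from the rest of the gene may remain. The libraries held 15860478 to 16553480 reads, and the 37 members together took 0.122% of them in wild type, 0.0819% in Hez and 0.0871% and 0.0863% in the knockout libraries. Each member had at least 19 reads in each library, and all 37 passed the filter on low counts. The lowest was Ropn1l, with 31 reads in wild type, 19 in Hez and 21 in each knockout library, and the highest was Cfap65, with 1770 in wild type, 1171 in Hez and 1176 and 1102 in the knockout libraries. Intervals given below are exact 95% Poisson intervals of single libraries and cover counting error only.

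The members stood lower in both knockout libraries than in wild type, and the Hez library stood as low. Both knockout libraries lay below wild type for 36 of 37 members, where 33.4% of all 15055 tested genes did so. The exception was Rsph3b, a spoke stalk gene. For the same count of 36 members all 3 other libraries lay below wild type, against 25.2% of all tested genes. The fitted log2 fold of knockout against wild type was negative for 37 of 37 members, with a median of -0.50 and a range from -0.82 to -0.0013. Over all tested genes 48.9% of folds were negative and the median was 0.0045.

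No single member passed the test. With the edgeR quasi-likelihood test and Benjamini-Hochberg adjustment over all tested genes, 0 of 37 members had an adjusted p below 0.05, where 8 genes in all, or 0.0531%, did. The smallest adjusted p among the members was 0.208, for Cfap65. At an unadjusted p below 0.05, 23 of 37 members were lower in the knockouts (3.37% of all tested genes) and 0 were higher (1.81% of all tested genes). DESeq2 and limma-voom called 0 members too, with 9 and 23 members lower at an unadjusted p below 0.05 (DESeq2 gave no adjusted p for 16 of the 37). With wild type and Hez as 1 reference group, the median fold was -0.21 and 3 members were lower at an unadjusted p below 0.05. With 1 wild-type library, each test on 3 groups takes its error from the knockout pair and from all genes together. It assumes that the lone libraries vary alike. The fit with the joint reference also counts the difference between wild type and Hez as error.

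The counting error of the wild-type library was smaller than the difference for most members. In 24 of 37 the wild-type interval lay above the intervals of both knockout libraries (4.39% of all tested genes). In 24 of 37 it also lay above the interval of Hez (2.84% of all tested genes). The knockout libraries differed from each other by a median of 0.11 on the log2 scale over the members, without regard to sign, and by 0.14 over all tested genes. Relative to wild type, the members had a median of -0.47 in knockout 1 and -0.48 in knockout 2. In bulk tissue, fewer multiciliated cells and less RNA per cell cannot be told apart.

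**Figure D1:**
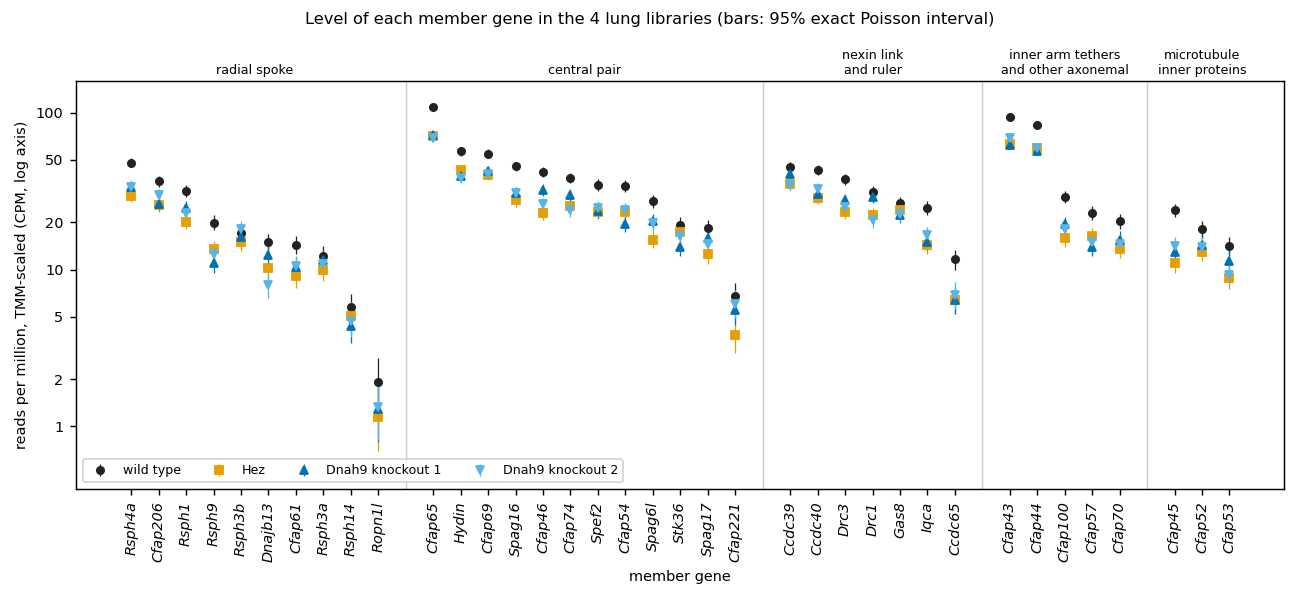
Level of each of the 37 members in the 4 libraries, in CPM on a log axis, grouped by the structure each protein belongs to and ordered by the wild-type level; symbols are single libraries and bars are 95% exact Poisson intervals. The wild-type symbol is the highest for every member except Rsph3b, where knockout 2 lies at 18.1 CPM and wild type at 17.1.

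The promoters were searched for sites of the transcription factors known to drive motile cilia genes: RFX factors, which bind the X-box, and the forkhead factor FOXJ1. RefSeq windows of the 250 bases before the start site (GRCm38.p6, a different build from that of the read counts) were matched for 32 members by symbol. The others, Rsph1, Rsph4a, Cfap53, Cfap54 and Cfap65, had no match. One arm of the X-box, GTTGCC on either strand, was present in 9 of 32 members (28.1%), against 11.8% of all 27025 genes with a window and 12.6% of the 11885 that were tested here. The full X-box, searched as GTTNCC, 0 to 3 bases and GGNAAC, was present in 1 of 32 members (3.12%) and 0.788% of all genes. Of the tested genes, 0.892% had it. This pattern fixes the last base of the first arm, so looser pairs were not counted. Hydin and Cfap44, for instance, have gttgct just before a GGCAAC. The forkhead site, TGTTTAC or TATTTAC on either strand, was present in 1 member, Cfap43 (3.12%). It was present in 6.51% of all genes and in 4.56% of the tested genes. The 9 members with the single arm had a median log2 fold of -0.53 against wild type, and the 23 without it -0.45. A match describes letters in the window, not a bound site.

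The stretches below hold the X-box arms of these 9 members, shown because a larger share of the members than of all genes held this motif. Each is written 5′ to 3′ on the strand of the gene, in lower case, with the matches in capitals (GGCAAC is the arm on the opposite strand). In Iqca, at chr1:90153509-90153558 on the minus strand, the capitals span the full X-box as searched. The end of this window was not found in a GENCODE transcript under that symbol, so its direction is RefSeq's alone. In Spag16, at chr1:69826837-69826894 on the plus strand, the arms face each other in the reverse order. Cfap44 and Gas8 have arms at a distance from each other, and Cfap74 has a further arm downstream that is not printed.
Iqca: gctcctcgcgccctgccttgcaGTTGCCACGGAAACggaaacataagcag
Spag16: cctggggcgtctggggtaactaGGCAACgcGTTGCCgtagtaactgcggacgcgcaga
Hydin (chr8:110266942-110266976, plus strand): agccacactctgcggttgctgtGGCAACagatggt
Drc1 (chr5:30281360-30281392, plus strand): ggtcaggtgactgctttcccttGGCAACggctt
Cfap46 (chr7:139683816-139683846, minus strand): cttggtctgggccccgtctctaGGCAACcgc
Ropn1l (chr15:31453690-31453731, minus strand): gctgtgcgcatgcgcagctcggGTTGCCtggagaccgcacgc
Cfap74 (chr4:155409052-155409101, plus strand): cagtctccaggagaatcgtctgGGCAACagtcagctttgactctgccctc
Gas8 (chr8:123518715-123518808, plus strand): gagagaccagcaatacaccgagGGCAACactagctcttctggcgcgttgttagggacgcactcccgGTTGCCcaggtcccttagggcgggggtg
Cfap44 (chr16:44394648-44394798, plus strand): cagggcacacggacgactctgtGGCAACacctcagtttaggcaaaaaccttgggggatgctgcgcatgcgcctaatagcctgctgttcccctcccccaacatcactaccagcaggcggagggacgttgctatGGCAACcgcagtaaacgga

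Radial spoke genes had a median log2 fold of -0.44 against wild type, with 10 of 10 negative and 4 at an unadjusted p below 0.05. Rsph4a, a protein of the spoke head, stood at 48.1 CPM in wild type, 29.6 in Hez, 33.6 in knockout 1 and 33.9 in knockout 2. The knockout libraries were nearly equal, and the log2 fold was -0.51 (SE 0.128, edgeR adjusted p = 0.493). Rsph9, another head protein, stood at 19.9 CPM in wild type, 13.4 in Hez, and 11.1 and 12.5 in the knockout libraries. Its log2 fold of -0.76 (SE 0.197, edgeR adjusted p = 0.546) was the furthest from 0 in this class, and the knockouts lay below Hez. Rsph1, a head protein as well, stood at 31.9 CPM in wild type, 20.1 in Hez, and 24.7 and 22.9 in the knockout libraries. The log2 fold was -0.42 (SE 0.155, edgeR adjusted p = 0.831), and Hez was the lowest library.

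Cfap206, which anchors a spoke base on the doublet, stood at 36.6 CPM in wild type, 25.8 in Hez, and 26.3 and 29.9 in the knockout libraries, with a log2 fold of -0.38 (SE 0.151, edgeR adjusted p = 0.896). Dnajb13, a chaperone-like protein of the spoke, was the member on which the knockout libraries differed most, at 12.4 and 7.93 CPM, with 14.9 in wild type and 10.2 in Hez. Hez thus lay between the knockout libraries, and the log2 fold of -0.55 was -0.91 without knockout 1 and -0.27 without knockout 2. Cfap61, of the third spoke, Rsph14 and Ropn1l had log2 folds of -0.46, -0.34 and -0.55, the last with an SE of 0.567 at its low count.

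The spoke stalk genes Rsph3a and Rsph3b had the fitted knockout folds nearest to 0 of all members. Rsph3a (ENSMUSG00000073471, chromosome 17, 8164446 to 8198656 on GRCm39, plus strand) stood at 12.3 CPM in wild type, 9.92 in Hez, 11.6 in knockout 1 and 10.8 in knockout 2. Rsph3b (ENSMUSG00000023806, chromosome 17, 7171812 to 7216081, minus strand) stood at 17.1 CPM in wild type, 14.9 in Hez, 16.05 in knockout 1 and 18.1 in knockout 2, so wild type lay between the knockout libraries. The log2 folds were -0.13 (SE 0.22, edgeR adjusted p = 0.996) for Rsph3a and -0.0013 (SE 0.19, edgeR adjusted p = 0.999) for Rsph3b. Without knockout 1 they were -0.18 and 0.084, and without knockout 2 -0.088 and -0.092. Both symbols name copies of the same spoke gene, and reads that fit both copies may have been split or assigned to either, so the separate values are uncertain.

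Central pair genes had a median log2 fold of -0.51, with 12 of 12 negative and 9 at an unadjusted p below 0.05. Cfap65 (ENSMUSG00000047021, chromosome 1, 74941230 to 74974758, minus strand), a protein of the central pair projections, had the highest CPM of all members: 109 in wild type, 70.9 in Hez, 72.3 in knockout 1 and 69.3 in knockout 2. The 3 other libraries lay within a narrow band well below wild type, and the log2 fold was -0.63 (SE 0.0987, edgeR adjusted p = 0.208). Hydin (ENSMUSG00000059854, chromosome 8, 110993609 to 111336885, plus strand), a very large protein of the C2 projection, stood at 56.9 CPM in wild type, 43.1 in Hez, and 39.5 and 38.5 in the knockout libraries. Hez lay between wild type and the knockouts, and the log2 fold was -0.54 (SE 0.116, edgeR adjusted p = 0.402).

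Spag16, a central apparatus protein, stood at 45.5 CPM in wild type, 27.7 in Hez, and 31.0 and 30.6 in the knockout libraries, with a log2 fold of -0.56 (SE 0.132, edgeR adjusted p = 0.445). Cfap54, a protein of the C1d projection, stood at 34.1 CPM in wild type, 23.3 in Hez, and 19.6 and 23.9 in the knockout libraries. Its log2 fold was -0.65 (SE 0.173, edgeR adjusted p = 0.554), and Hez lay between the knockout libraries. Its partners in the same projection had log2 folds of -0.53 for Cfap46, -0.51 for Cfap74 and -0.23 for Cfap221. Cfap46 and Cfap74 differed between knockout 1 and knockout 2 by 0.31 on the log2 scale each. Spef2 and Cfap69, of the C1b projection, had log2 folds of -0.51 and -0.40, and the armadillo-repeat protein gene Spag6l and its binding partner Spag17 -0.45 and -0.27. Stk36, a kinase needed to build the central pair, had a log2 fold of -0.35, with 19.3 CPM in wild type and 17.4 in Hez.

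Genes of the nexin-dynein regulatory complex and of the axonemal ruler had a median log2 fold of -0.46, with 7 of 7 negative and 4 at an unadjusted p below 0.05. Iqca, a subunit of the complex, stood at 24.8 CPM in wild type, 14.3 in Hez, and 15.1 and 16.6 in the knockout libraries. The log2 fold was -0.65 (SE 0.178, edgeR adjusted p = 0.575). Drc3 stood at 37.8 CPM in wild type, 23.2 in Hez, and 27.7 and 25.2 in the knockout libraries, with a log2 fold of -0.51 (SE 0.148, edgeR adjusted p = 0.624). Ccdc65, which encodes the Drc2 subunit, stood at 11.6 CPM in wild type, 6.35 in Hez, and 6.39 and 6.86 in the knockout libraries. The 3 other libraries were nearly equal, and the log2 fold was -0.81 (SE 0.253, edgeR adjusted p = 0.691).

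Drc1 and Gas8, which encode further subunits, had log2 folds of -0.32 (SE 0.211) and -0.24 (SE 0.156). Drc1 stood at 31.1 CPM in wild type, 22.1 in Hez, 29.1 in knockout 1 and 20.6 in knockout 2, so knockout 1 lay near wild type and knockout 2 near Hez. Its log2 fold was -0.60 without knockout 1 and -0.098 without knockout 2. Ccdc40, which forms the axonemal ruler with Ccdc39, stood at 43.5 CPM in wild type, 28.6 in Hez, and 30.6 and 32.6 in the knockout libraries, with a log2 fold of -0.46 (SE 0.136, edgeR adjusted p = 0.632). The log2 fold of Ccdc39 was -0.25 (SE 0.141), and it was -0.36 without knockout 1 and -0.15 without knockout 2.

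The genes of the inner arm tethers and other axonemal proteins had a median log2 fold of -0.51, and 5 of 5 were lower at an unadjusted p below 0.05. Cfap44 and Cfap43, which together tether an inner dynein to the doublet, were the most abundant of them. Cfap44 stood at 83.3 CPM in wild type, 59.2 in Hez, and 57.4 and 60.0 in the knockout libraries, with a log2 fold of -0.50 (SE 0.102, edgeR adjusted p = 0.372). Cfap43 stood at 93.7 CPM in wild type, 63.4 in Hez, and 62.5 and 69.3 in the knockout libraries, with a log2 fold of -0.51 (SE 0.108, edgeR adjusted p = 0.399). In both, Hez lay between the knockout libraries. Cfap43 overlaps Gsto1, a gene on the opposite strand with 3504 reads in wild type, 2028 in Hez, and 1964 and 2758 in the knockout libraries. Whether the counting separated the strands is not known from the sources used here. Of the other members, Rsph9, Rsph14, Dnajb13, Cfap61, Spag17, Ccdc39 and Cfap100 also overlap a gene on the opposite strand, and Gas8 one on the same strand that had 0 reads. Ucp2, which shares 305 bases with Dnajb13, had 7493 reads in wild type, 7045 in Hez, and 7895 and 6305 in the knockout libraries. Ttc14, which shares 2499 bases with Ccdc39, had 2514 reads in wild type, 2488 in Hez, and 2441 and 2304 in the knockout libraries. Cfap43 also overlaps Itprip on the same strand, which had 628 reads in wild type, 793 in Hez, and 681 and 692 in the knockout libraries.

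Cfap100, a regulator of inner arm dyneins, stood at 29.1 CPM in wild type, 15.8 in Hez, and 19.5 and 18.2 in the knockout libraries, with a log2 fold of -0.63 (SE 0.165, edgeR adjusted p = 0.547). Cfap57, an adaptor of inner arm dyneins, stood at 22.9 CPM in wild type, 16.3 in Hez, and 13.9 and 14.98 in the knockout libraries, with a log2 fold of -0.67 (SE 0.179, edgeR adjusted p = 0.566). Hez was the lowest library for Cfap100, and the knockouts were the lowest for Cfap57. Cfap70 had a log2 fold of -0.43 (SE 0.183).

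Among the proteins inside the doublet microtubules, Cfap45 (ENSMUSG00000026546, chromosome 1, 172348368 to 172373437, plus strand) had the log2 fold furthest from 0 of all 37 members. It stood at 23.8 CPM in wild type, 11.1 in Hez, 12.9 in knockout 1 and 14.1 in knockout 2, with a log2 fold of -0.82 (SE 0.185, edgeR adjusted p = 0.417). Relative to wild type this was 54.2% and 59.2% in the knockout libraries and 46.5% in Hez. Cfap53 stood at 14.2 CPM in wild type, 8.89 in Hez, and 11.3 and 9.25 in the knockout libraries, with a log2 fold of -0.46 (SE 0.234, edgeR adjusted p = 0.996). Cfap52 stood at 18.2 CPM in wild type, 12.9 in Hez, and 14.4 and 14.0 in the knockout libraries, with a log2 fold of -0.36 (SE 0.188, edgeR adjusted p = 0.996).

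Levels between genes were compared per length, in FPKM, which divides the reads by gene length as well as by library total. The members ranged from 1.36 to 23.4 FPKM in wild type, with a median of 5.82. Rsph1 was the highest in each of the 4 libraries, at 23.4 FPKM in wild type, 14.7 in Hez, and 17.9 and 16.7 in the knockout libraries. Cfap61 was the lowest in each, at 1.36 FPKM in wild type, 0.854 in Hez, and 0.967 and 0.993 in the knockout libraries. Rsph3b moved furthest up the order of members, from rank 21 in wild type to 13 in Hez and to 14 and 10 in the knockout libraries. Ccdc65 moved down, from rank 18 to 24 in Hez and to 26 and 23 in the knockout libraries. Hydin, the longest member, was at 3.17 FPKM in wild type, rank 30, with 56.9 CPM.

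Hez was compared with wild type as 1 library against 1, by description, and no test was run on this difference. The difference in log2 CPM was negative for 37 of 37 members (50.4% of all tested genes), with a median of -0.57 and a range from -1.10 for Cfap45 to -0.14 for Gas8. The median over all tested genes was -0.0023. Lower by a fold of 1.5 or more were 17 of 37 members, against 6.84% of all tested genes. Besides Cfap45, the members furthest below wild type were Cfap100 (-0.88), Cfap46 (-0.87), Ccdc65 (-0.86), Spag6l and Cfap221 (-0.81 each). The members nearest to wild type were Gas8, Stk36 (-0.15), Rsph14 and Rsph3b (-0.19 each). These differences use the same wild-type library as the knockout comparison, so the negative signs in both are not independent of each other.

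**Figure D2:**
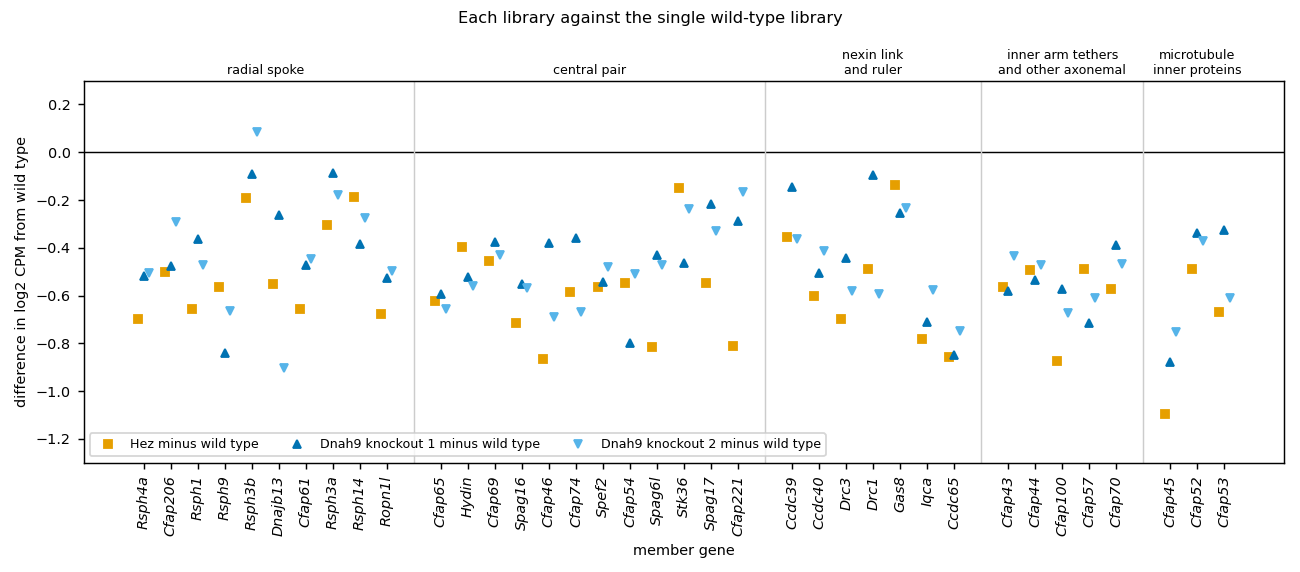
Difference in log2 CPM between each of the 3 other libraries and the wild-type library, for each member; each symbol is 1 library against 1, and the line at 0 is wild type. Nearly all symbols lie below 0, with Rsph3b in knockout 2 at 0.08 as the exception, and Cfap45 in Hez is the lowest at -1.10.

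Against Hez, most members stood slightly higher in the knockout libraries, which are the same libraries as in the comparison with wild type. The edgeR test called 0 of 37 members (0.00664% of all tested genes, which is 1 gene), and 0 of 37 had an unadjusted p below 0.05 (4.61% of all tested genes). DESeq2 and limma-voom called 0 members as well, with 0 at an unadjusted p below 0.05. The log2 fold was negative for 9 of 37 members, where 47.5% of all tested genes had a negative fold. The median over the members was 0.14, with a range from -0.20 to 0.60, and the median over all tested genes was 0.0099. Both knockout libraries lay above Hez for 23 of 37 members (34.2% of all tested genes) and both lay below Hez for 6 (31.9% of all tested genes).

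The 6 members with both knockout libraries below Hez were Rsph9 (log2 fold -0.19, SE 0.203), Rsph14 (-0.14, SE 0.325), Hydin (-0.14, SE 0.118), Stk36 (-0.20, SE 0.194), Gas8 (-0.11, SE 0.157) and Cfap57 (-0.17, SE 0.184). All had an edgeR adjusted p of 0.9997. Without knockout 1 and without knockout 2 respectively, the fold was -0.11 and -0.28 for Rsph9, -0.095 and -0.20 for Rsph14, and -0.096 and -0.32 for Stk36. The 3 with the largest positive folds and both knockout libraries above Hez were Cfap221, Spag6l and Cfap46. Cfap221 stood at 3.81 CPM in Hez against 5.53 and 6.04 in the knockouts (log2 fold 0.60, SE 0.323), and Spag6l at 15.5 against 20.3 and 19.7 (0.37, SE 0.172). Cfap46 stood at 23.1 CPM against 32.3 and 26.1 (0.34, SE 0.174), with a log2 fold of 0.17 without knockout 1 and 0.49 without knockout 2. The edgeR adjusted p of each of the 3 was 0.9997, so a difference from Hez was not detectable with these libraries. Dnah9 was higher in Hez than in either knockout library, while the summed level of the members was 821 CPM in Hez and 877 and 861 CPM in the knockout libraries.

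**Figure D3:**
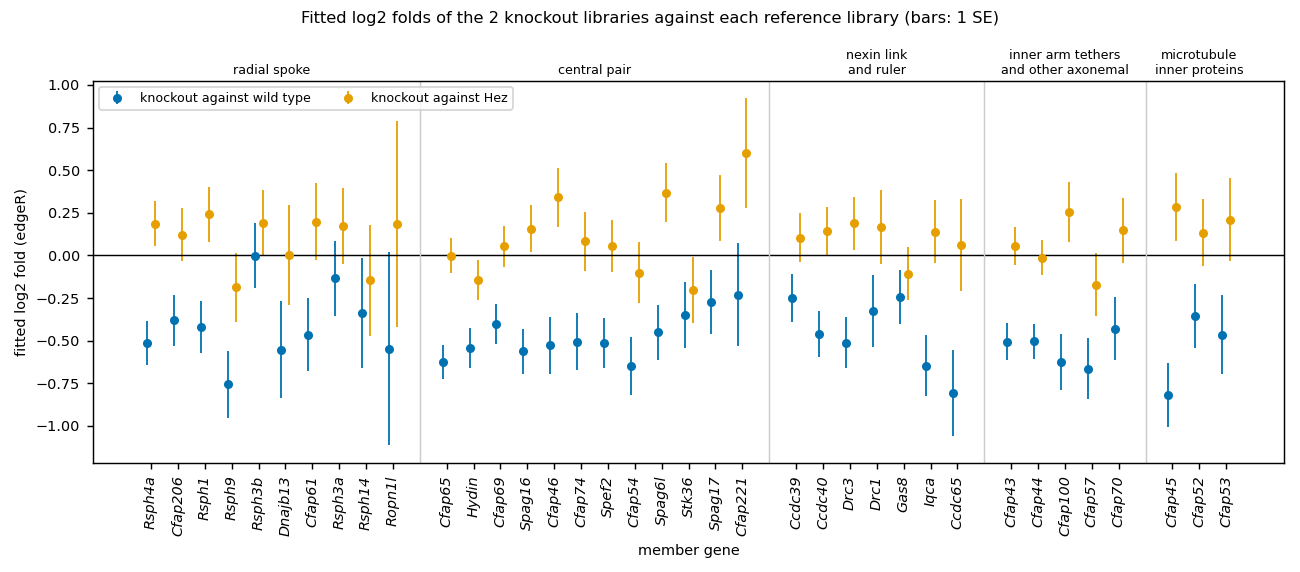
Fitted log2 folds of the 2 knockout libraries against wild type (blue) and against Hez (orange) for each member, with bars of 1 SE from edgeR. The median fold is -0.50 against wild type and 0.14 against Hez.

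Other genes of the same structures, outside the 37, lay on the same side. Of 21 tested genes of the spokes, the central pair and the nexin link, 20 had negative log2 folds against wild type, with a median of -0.42, 0 with an edgeR adjusted p below 0.05, and 8 lower and 0 higher at an unadjusted p below 0.05. Nme5, a spoke-associated kinase-like protein, stood at 28.8 CPM in wild type, 17.7 in Hez, and 16.2 and 18.2 in the knockout libraries (log2 fold -0.74). Lrrc23, a spoke protein, and Drc7, of the nexin link, had log2 folds of -0.43 and -0.67. Of 15 other microtubule inner proteins and tektins, 14 had negative folds, with a median of -0.33 and 2 lower at an unadjusted p below 0.05, the examples being Enkur (-0.56) and Tekt4 (-0.50). Of 15 dynein arm genes without Dnah9, 14 had negative folds, with a median of -0.45 and 8 lower at an unadjusted p below 0.05, led by the inner arm heavy chains Dnah6 (-0.63), Dnah3 (-0.59) and Dnah10 (-0.50). In each of these lists 0 genes had an edgeR adjusted p below 0.05.

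Markers of multiciliated cells that are not among the members stood lower as well. All 18 tested markers had negative folds against wild type, with a median of -0.51, and 0 of them were at 0 reads in any library. Foxj1, the transcription factor that drives motile ciliogenesis, stood at 104 CPM in wild type, 68.4 in Hez, and 70.6 and 70.9 in the knockout libraries (log2 fold -0.55). The surface protein gene Cdhr3 and the ciliary gene Ccdc153 had log2 folds of -0.60 and -0.53. The summed level of the markers was 947 CPM in wild type, 646 in Hez, and 725 and 722 in the knockout libraries. For the members the sums were 1216, 821, 877 and 861 CPM. The members' sum divided by the markers' sum was 1.28 in wild type, 1.27 in Hez, and 1.21 and 1.19 in the knockout libraries. By this ratio the libraries lay closer together than in CPM. Hez lay next to wild type, and each knockout library lay below both of these. The markers include Foxj1, and what the ratio reflects was not tested.

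Markers of other cell types also differed from wild type, in both directions, and their part in the members' result was not tested. All 16 club and secretory cell markers had negative folds (median -0.69), and the edgeR test called 3 of them, Scgb3a1, Bpifa1 and Scgb3a2. Their sum was 21128 CPM in Hez and 21971 and 19154 in the knockout libraries against 26531 in wild type. All 9 smooth muscle markers were negative (median -0.49), with 1184 CPM in Hez and 1535 and 1360 in the knockouts against 1960 in wild type. All 13 alveolar type 2 cell markers were positive (median 0.26), with 29801 CPM in Hez and 34324 and 32795 in the knockouts against 29077 in wild type, as were all 9 endothelial markers (median 0.16), with 4622 CPM in Hez and 4450 and 4546 against 4085. Of 12 immediate early genes, which are induced rapidly by stimuli, 11 were positive (median 0.90) and 1, Zfp36, was called. Their sum was 1490 CPM in Hez and 1402 and 1948 in the knockouts against 959 in wild type. In these 5 lists 0 markers were at 0 reads in any library.

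**Figure D4:**
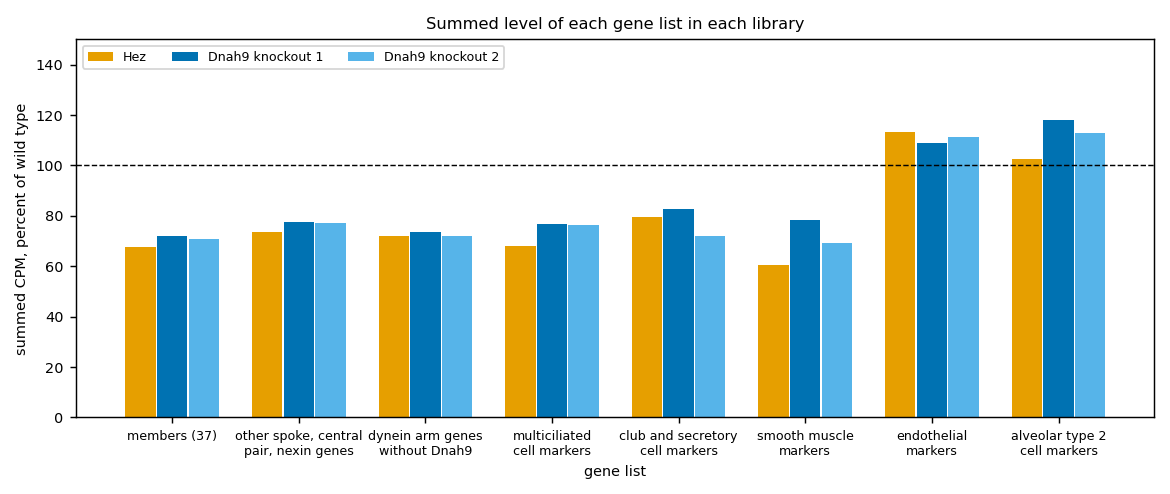
Summed CPM of each gene list in the Hez library and in both knockout libraries, as a percent of the wild-type library (dashed line at 100); bars are single libraries and carry no error. The members' bars are 67.5% for Hez, 72.1% for knockout 1 and 70.8% for knockout 2, and those of the multiciliated cell markers 68.2%, 76.6% and 76.2%.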

How the data were processed

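Per the labels' protocols, lung RNA was prepared with a TruSeq kit for HiSeq sequencing. The authors deposited raw read counts and FPKM values per gene, per the file headers. Recomputed from reads, totals and lengths, 66024 of 66024 nonzero FPKM values matched (relative tolerance 1e-06). The submitters' processing notes name GRCm39. The aligner, counter, annotation and strandedness were not given in the sources used here; 9 members overlap another gene of the table, 8 of them on the opposite strand.

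Groups follow the genotype labels, and replicate numbers, given here in accession order because the labels carry none, pair nothing. Counts were filtered (filterByExpr, minimum count 10), scaled by TMM (factors 0.993 to 1.01) and tested with the edgeR 4.0.16 quasi-likelihood test, two-sided, under R 4.3.3. The fit covered 3 groups with 1 residual degree of freedom, and p-values were adjusted by Benjamini-Hochberg over 15055 genes. Each SE was derived from the fold and its F statistic. Hez against wild type used log2 CPM with a prior count of 2. The libraries differed by more than sampling noise (8.23 to 12.1 chi-square units a gene). The scripts were tested on simulated counts. Alternatives were DESeq2 1.42.0, limma-voom 3.58.1, other scalings and filters, another prior count, a joint reference and left-out libraries.

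Members and lists were chosen with earlier results of these data known. In full were described the 4 members of each class with the smallest p, those not below wild type in both knockout libraries, and Rsph3a and Rsph3b; of each context list, the 3 with the smallest p were eligible, and 1 of these is not reported here. Of 34 RefSeq promoter windows, 32 ended in bases found in a GENCODE transcript of their gene in the printed direction, and 0 in the other. Whether these bases open the transcript was not checked.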

Additional observations from a re-analysis of the deposited data

How the results depend on the processing

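The count of 0 called members held in both comparisons under each alternative that gave a test. The number of all genes called against wild type was 8; DESeq2 called 16, edgeR without a filter 4, edgeR with the stricter filter 4, and edgeR 2 with wild type and Hez as 1 reference group. Against Hez it was 1, against 7 with DESeq2. The members' median against wild type (-0.50) was -0.52 with library totals only or with a mean of at least 10 CPM (33 members tested), and -0.51 to -0.47 with a library left out. The joint reference gave a single comparison, of the knockouts against wild type and Hez together. Its median was -0.21, with 34 of 37 folds negative, and it is not a fold against Hez alone or wild type alone. In that fit Rsph3a (0.0078), Rsph3b (0.089) and Cfap221 (0.12) were positive, where their folds against wild type alone were negative. Spag6l (-0.10) and Cfap46 (-0.16) were negative, where their folds against Hez alone were positive. The fold of Rsph3b was 0.00035 with no filter and -0.092 to 0.084 with a library left out. The median against Hez was 0.11 to 0.16 with a library left out, and that of Hez against wild type was -0.58 with the stricter filter. Without a knockout library no residual degree of freedom remained, so only folds were computed. No paired analysis was possible because wild type and Hez have 1 library each and the labels carry no replicate numbers. With 1 wild-type and 1 Hez library, an effect of genotype and a difference of that single library cannot be told apart.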
